A study of Mus musculus with 10 samples.

Results

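The integrin and laminin genes were compared between colon tumours labelled KO and WT. They were taken by symbol: all genes of the array annotation named as an integrin alpha chain (Itga), an integrin beta chain (Itgb) or a laminin alpha, beta or gamma chain (Lama, Lamb, Lamc), with 1 probe set per gene, the one with a single gene symbol and the highest mean over the 10 arrays. This gave 34 genes of 18193 with a single symbol, 24 integrins and 10 laminins. Of these, 28 had a mean at or above the level filter of 5.82 log2 and were tested, among 12250 genes tested in all. Itga7, Itga8, Itga10, Itgam, Itgb8 and Lamc3 lay under the filter and are given by value. Itga11 and Itgad were not analysed here.

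The KO tumours came from mice labelled vil-Cre-Bcl9-/-/Bcl9l-/- and the WT tumours from wild-type mice, all of a 129SvEv/C57BL/6/DBA/2 mixed background. vil-Cre is a recombinase under the villin promoter, which is active in gut epithelium, and Bcl9 and Bcl9l encode co-factors of beta-catenin. All mice, aged 6 to 8 weeks, had received dimethylhydrazine, from which the body makes a colon carcinogen, at 44 mg/kg. They then drank 2% dextran sulfate sodium, which injures the colon lining, for 7 days. Tumour tissue was cut out by laser, its RNA was amplified, and each of 10 samples was hybridised to 1 Affymetrix mouse genome array. The KO tumours were 2 and 6 of mouse 02, 9 and 11 of mouse 04 and 7 of mouse 99. The WT tumours were 1, 3, 12 and 13 of mouse 72 and 8 of mouse 82. Tumours here carry the first number of the sample id, whereas the titles use the last, so KO tumour 11 is titled tumour 258. The values are the deposited log2 signals made by RMA (background correction, normalisation between arrays and summary per probe set), and the levels of different probe sets are not compared with each other.

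Integrins are receptors made of 1 alpha and 1 beta chain that join a cell to the matrix around it or to other cells. Laminins are trimers of 1 alpha, 1 beta and 1 gamma chain and form a sheet of the basement membrane under gut epithelium. In the colon, epithelial cells hold on to laminin through integrins with Itga3 or Itga6, whereas lymphocytes use Itgal with Itgb2, Itga4 with Itgb7 and Itgae with Itgb7 to enter and stay in the mucosa.

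Array medians ranged from 6.43 to 6.50 log2. The 5 probe sets of Bcl9 and Bcl9l do not check the genotypes, as where they lie relative to the deletion is not given in the sources used here, and the mean was lower in KO than in WT tumours for 1 of them. The tumours are called KO and WT as labelled. Numbers in the sample names fall in a lower range, 191 to 229, with 1 KO and 4 WT tumours, and an upper range, 254 to 258, with 4 KO tumours and 1 WT tumour. Results were therefore also computed with the range as a covariate and within each range. WT tumour 3 stood apart on several measures given below. Several tumours shared a mouse, which entered the fit as a random block, and 4 of the 5 WT tumours came from 1 mouse, mouse 72. Every result given without mouse 72 therefore rests on WT tumour 8 as the only WT tumour. As a check of the tissue, the mean of 9 epithelial markers was 11.71 to 12.05 log2 in KO and 11.12 to 12.38 log2 in WT tumours.

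For 3 genes the results turn on or lie next to, the 250 bases before a transcription start listed by RefSeq on GRCm38.p6 are shown, to set beside the values that follow. Itga4 and Itgb7 encode the chains of one lymphocyte receptor, and Lamb3 is the laminin gene that passed the test. The windows are Itga4 at chr2:79255176-79255425 on the plus strand, Itgb7 at chr15:102231936-102232185 on the minus strand and Lamb3 at chr1:193301744-193301993 on the plus strand, each printed 5′ to 3′ on its gene's strand. The annotated span of Itga4 begins right after its window, whereas the windows of Itgb7 and Lamb3 lie inside the annotated spans of these genes, which begin upstream of them. Lamb3 has a second listed start, whose window is not shown.
Itga4: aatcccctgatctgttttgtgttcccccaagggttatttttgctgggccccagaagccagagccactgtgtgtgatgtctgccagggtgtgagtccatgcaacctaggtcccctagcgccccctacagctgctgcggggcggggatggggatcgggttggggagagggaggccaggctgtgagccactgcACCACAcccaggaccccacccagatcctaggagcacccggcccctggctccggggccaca
Itgb7: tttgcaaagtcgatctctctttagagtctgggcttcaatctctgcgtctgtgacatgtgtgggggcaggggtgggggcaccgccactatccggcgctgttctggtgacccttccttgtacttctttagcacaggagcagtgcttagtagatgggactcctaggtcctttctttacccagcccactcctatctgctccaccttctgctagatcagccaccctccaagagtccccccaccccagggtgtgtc
Lamb3: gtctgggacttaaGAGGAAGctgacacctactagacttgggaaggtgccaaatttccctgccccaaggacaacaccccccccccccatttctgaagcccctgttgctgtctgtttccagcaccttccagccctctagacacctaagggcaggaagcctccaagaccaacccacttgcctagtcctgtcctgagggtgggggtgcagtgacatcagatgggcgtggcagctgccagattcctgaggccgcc
Capitals mark matches to 1 of 3 motifs searched on both strands. These were TGTGGT, a core of RUNX sites, GAGGAAG, a form of ETS sites, and CTTTGA, a core of TCF/LEF sites. In Itga4 the capitals mark the RUNX letters on the opposite strand, from -60 to -55 relative to the listed start. In Lamb3 they mark the ETS letters, from -237 to -231. The Itgb7 window held none of the 3 motifs, nor did the window of the second listed Lamb3 start. The RUNX letters occurred in 14.0% of 32851 windows of all genes and in 2 of 25 windows of integrin and laminin genes, those of Itga3 and Itga4. The ETS letters occurred in 10.6% of all windows and in 6 of the 25, of Itga2b, Itgam, Itgav, Itgb6, Lama2 and Lamb3. The TCF/LEF letters occurred in 13.8% of all windows and in 4 of the 25, of Itga1, Itga10, Itgam and Lama2. The 25 windows belong to 22 of the 34 genes. A match describes these letters only.

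KO tumours differed from WT tumours in 3 of the 28 genes tested. Itgal and Itgae, alpha chains of integrins on leukocytes, rose, and Lamb3, a chain of an epithelial laminin, fell (limma, adjusted p under 0.05). This is 10.7% of the genes tested, beside 7.09% of all 12250 genes. By direction, 2 integrin genes were higher, beside 4.16% of all genes, and 1 laminin gene was lower, beside 2.93% of all genes. At an unadjusted p under 0.05 the count was 10 of 28, or 35.7%, beside 22.4% of all genes, with 6 higher, beside 12.8%, and 4 lower, beside 9.58%. KO and WT tumours did not overlap in 4 of 28, or 14.3%, beside 9.12% of all genes. Itgal, Itgae and Itgb7 were higher in all KO tumours, beside 5.33% of all genes, and Itgb1 was lower in all KO tumours, beside 3.79% of all genes. The median difference, KO minus WT, was -0.057 log2 over the 28 genes and 0.025 log2 over all genes. By family the differences of the 19 integrins were positive in 11 and negative in 8, and those of the 9 laminins were negative in 8, with a median of -0.33 log2. Over all 12250 genes, 6586 differences were positive and 5664 negative.

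**Figure D1:**
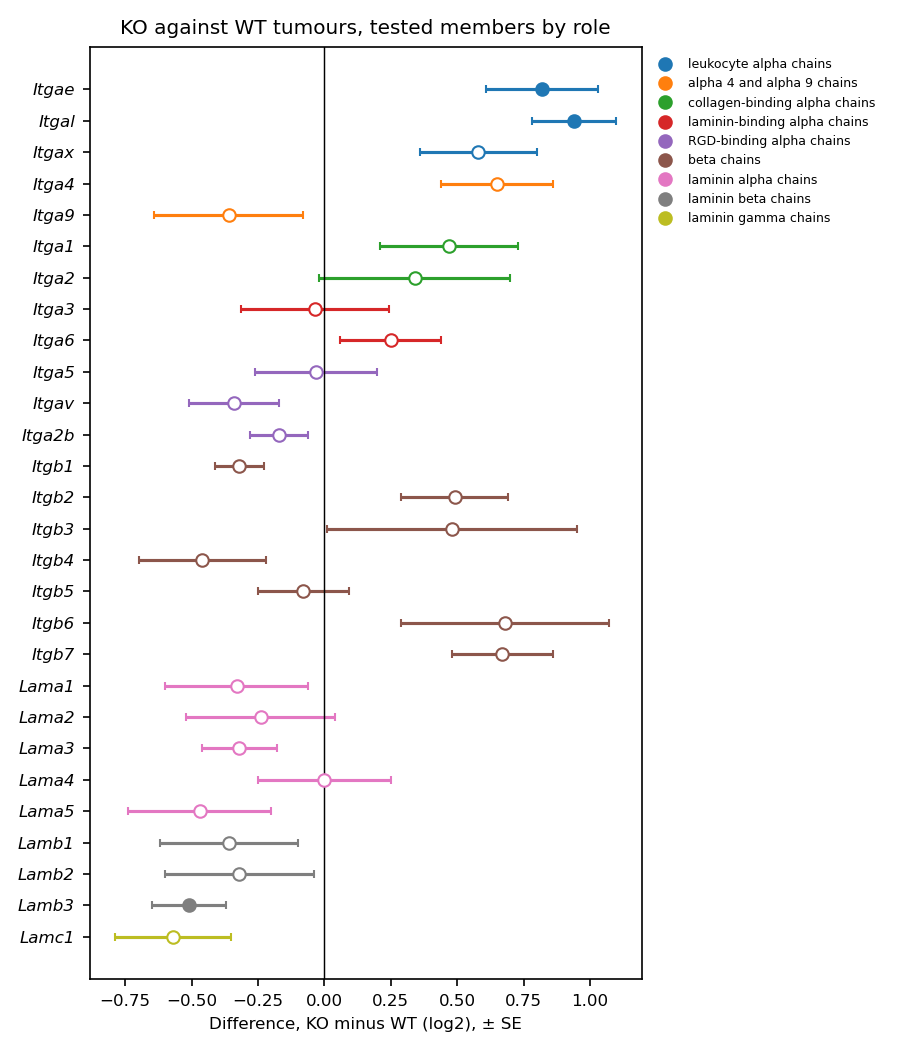
Difference in log2 signal, KO minus WT, for the 28 genes tested, grouped by role, with bars for the standard error and filled points for adjusted p under 0.05 (limma). Itgal at 0.94, Itgae at 0.82 and Lamb3 at -0.51 are filled, and all other points are open.

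Among the leukocyte alpha chains, Itgal had the smallest p of the genes in question. Its product pairs with that of Itgb2 to form LFA-1, which binds ICAM proteins. Itgal stood at 7.81, 7.34, 7.63, 7.89 and 7.48 log2 in KO tumours 2, 6, 7, 9 and 11, against 6.85, 6.66, 6.28, 7.04 and 6.72 log2 in WT tumours 1, 3, 8, 12 and 13. Every KO tumour was above every WT tumour, with WT tumour 8 the lowest. The means were 7.63 ± 0.23 in KO and 6.71 ± 0.28 in WT (SD, n = 5 tumours each). The fitted difference was 0.94 ± 0.16 log2 (SE), 1.91-fold, with an adjusted p of 0.00831 (limma). Over mouse means, 3 KO against 2 WT mice, it was 1.08 log2 with an adjusted p of 0.0461, and Itgal was the 1 of the 28 genes to pass, beside 3.17% of all genes. With the number range as a covariate it was 0.90 log2 (adjusted p = 0.037). Within the lower range it was 0.94 (adjusted p = 0.357) and within the upper range 0.78 log2 (adjusted p = 0.176), each with a single tumour in 1 group. Without mouse 72, with WT tumour 8 alone in its group, it was 1.35 log2 and did not pass. The other probe set of Itgal lay under the level filter and ranged from 5.0 to 6.01 log2 in KO and from 4.54 to 5.04 log2 in WT tumours.

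Itgae encodes the alpha chain that pairs with Itgb7 on lymphocytes within epithelium and binds E-cadherin. Itgae stood at 9.19, 8.55, 8.68, 9.04 and 9.34 log2 in KO tumours 2, 6, 7, 9 and 11, against 8.34, 7.60, 8.42, 8.27 and 7.97 log2 in WT tumours 1, 3, 8, 12 and 13. The groups did not overlap, but KO tumour 6 lay close above WT tumour 8. The means were 8.96 ± 0.34 in KO and 8.12 ± 0.34 in WT (SD, n = 5 tumours each). The difference was 0.82 ± 0.21 log2 (SE), 1.77-fold, with an adjusted p of 0.0399 (limma). Over mouse means it was 0.68 log2 (adjusted p = 0.163), and with the range as a covariate 0.63 log2 (adjusted p = 0.175). It was 0.63 log2 within the lower range (adjusted p = 0.577) and 0.69 log2 within the upper range (adjusted p = 0.302). With 1 tumour left out it ran from 0.69 to 0.92 log2, and it did not pass without KO tumour 2, 9 or 11 nor without WT tumour 1, 3 or 13 (adjusted p = 0.0538 to 0.0757). Without mouse 72 it was 0.52 log2 (adjusted p = 0.531), and it did not pass without mouse 02 or mouse 04 either. The other Itgae probe set gave a difference of 0.34 log2 (adjusted p = 0.243), so the size depends on the probe set.

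Itgax, a chain of myeloid and dendritic cells that pairs with Itgb2, stood at 6.46, 6.62, 6.68, 6.81 and 6.54 log2 in KO tumours 2, 6, 7, 9 and 11, against 5.89, 5.42, 5.96, 6.68 and 6.29 log2 in WT tumours 1, 3, 8, 12 and 13. WT tumour 12 fell within the KO range and WT tumour 3 was the lowest. The difference was 0.58 log2 with an adjusted p of 0.142 (limma), which did not pass. Itgam, another partner of Itgb2, lay under the level filter at 4.25 to 4.45 log2 in KO and 4.42 to 4.81 log2 in WT tumours.

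Itgb7 pairs with Itga4 and with Itgae. Itgb7 stood at 7.65, 7.98, 8.18, 7.61 and 7.83 log2 in KO tumours 2, 6, 7, 9 and 11, against 7.20, 6.67, 7.43, 7.57 and 7.00 log2 in WT tumours 1, 3, 8, 12 and 13. Every KO tumour was above every WT tumour, by a narrow margin between KO tumour 9 and WT tumour 12. The difference was 0.67 ± 0.19 log2 (SE) and did not pass (limma, adjusted p = 0.0607).

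Itga4, whose product pairs with that of Itgb7 or Itgb1, stood at 7.38, 7.67, 8.04, 7.33 and 7.13 log2 in KO tumours 2, 6, 7, 9 and 11, against 6.86, 6.54, 6.60, 7.25 and 7.13 log2 in WT tumours 1, 3, 8, 12 and 13. KO tumour 11 lay at the level of WT tumour 13, and the groups overlapped. The difference was 0.65 ± 0.21 log2 (SE) with an adjusted p of 0.0925 (limma). Of the other probe sets of Itga4, 1 passed when each probe set was tested by itself, a test passed by 5.69% of all probe sets, with a difference of 0.69 log2 (adjusted p = 0.0334).

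Itgb2, the beta chain of LFA-1 and of other leukocyte integrins, stood at 8.53, 8.82, 9.11, 8.68 and 8.53 log2 in KO tumours 2, 6, 7, 9 and 11, against 8.19, 7.65, 8.27, 8.44 and 8.67 log2 in WT tumours 1, 3, 8, 12 and 13. WT tumour 13 lay within the KO range and WT tumour 3 was the lowest. The difference was 0.49 log2 (limma, adjusted p = 0.176). The differences of Itgal, Itgae, Itgax, Itgb2, Itgb7 and Itga4 ran from 0.49 to 0.94 log2. These 6 genes are named together after their values were seen.

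**Figure D2:**
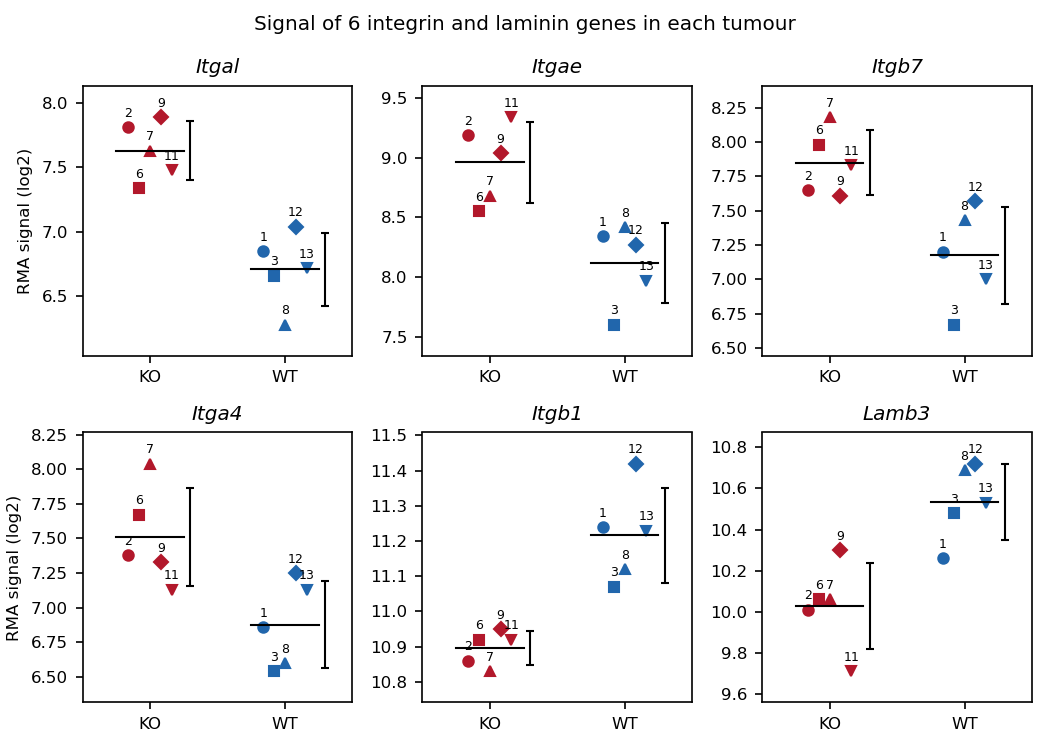
RMA log2 signal of 6 genes in each tumour, KO on the left and WT on the right of each panel, with numbers giving the tumour, a line for the mean and a bar for the SD (n = 5 tumours each). KO and WT tumours do not overlap in Itgal, Itgae, Itgb7 and Itgb1, and overlap in Itga4 and Lamb3.

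Most lymphocyte markers tested were also higher in KO tumours. Of 12 lymphocyte markers on the array, from a list chosen with earlier results of these data known, 8 were tested. Of these, 6 rose (limma), 75% beside 4.16% of all genes higher and 7.09% in either direction. These were Cd3g, Cd8a and Cd2 of T cells and Cd79a, Cd79b and Jchain of B lineage cells. Cd3d (0.58 log2, adjusted p = 0.133) and Cd4 (0.047 log2, adjusted p = 0.788) did not pass (limma). Cd3e, Cd5, Cd8b1 and Ms4a1 lay under the filter. The mean of the 12 markers ranged from 6.37 to 6.96 log2 in KO and from 5.30 to 5.87 log2 in WT tumours, with no overlap. Cd8a differed by 2.70 log2 (adjusted p = 0.000192) and Cd3g by 1.63 log2 (adjusted p = 0.00301). The myeloid list ranged from 8.19 to 8.45 log2 in KO and from 7.45 to 8.36 log2 in WT tumours, where WT tumour 3 was the lowest. Of its 9 tested genes 1, Cd14, rose and none fell, 11.1% beside 4.16% of all genes higher and 7.09% in either direction. The log2 of the summed signal of the lymphocyte markers was 12.19 to 12.66 in KO and 9.66 to 10.80 in WT tumours. Jchain alone was at 11.89 to 12.40 log2 in KO and 8.40 to 10.25 log2 in WT tumours. The sum in KO tumours therefore rests largely on this 1 gene. The part of these cell types in the differences of Itgal and Itgae was not tested. Since the tissue is bulk, more cells of a type and more RNA per cell cannot be told apart.

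**Figure D3:**
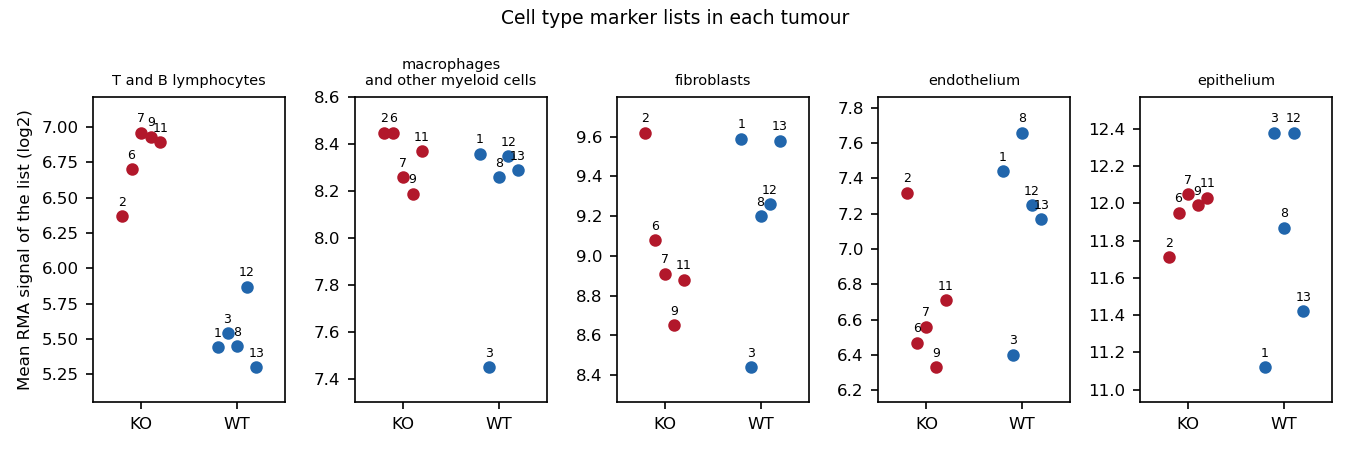
Mean RMA log2 signal of 5 cell type marker lists in each tumour, KO on the left and WT on the right of each panel, with numbers giving the tumour. The lymphocyte means of KO tumours, from 6.37 to 6.96, lie above those of WT tumours, from 5.30 to 5.87, and the other 4 lists overlap.

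Lamb3, a beta chain that joins the product of Lama3 in a laminin that anchors epithelium, fell. Lamb3 stood at 10.01, 10.06, 10.06, 10.30 and 9.71 log2 in KO tumours 2, 6, 7, 9 and 11, against 10.26, 10.48, 10.69, 10.72 and 10.53 log2 in WT tumours 1, 3, 8, 12 and 13. KO tumour 9 lay above WT tumour 1, so the groups overlapped. The means were 10.03 ± 0.21 in KO and 10.54 ± 0.19 in WT (SD, n = 5 tumours each). The difference was -0.51 ± 0.14 log2 (SE), 1.43-fold lower, with an adjusted p of 0.0487 (limma). Over mouse means it was -0.56 log2 (adjusted p = 0.0873) and with the range as a covariate -0.40 log2 (adjusted p = 0.192). It was -0.54 log2 within the lower range (adjusted p = 0.399) and -0.24 log2 within the upper range (adjusted p = 0.674). With 1 tumour left out it ran from -0.58 to -0.43 log2 and passed only without KO tumour 9 or without WT tumour 1, and without mouse 72 it was -0.67 log2 (adjusted p = 0.281). Lamb3 had 1 probe set.

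Lamc1, the gamma chain of most laminins, stood at 10.03, 9.36, 9.88, 9.14 and 9.35 log2 in KO tumours 2, 6, 7, 9 and 11, against 10.25, 9.59, 10.33, 10.06 and 10.37 log2 in WT tumours 1, 3, 8, 12 and 13. The groups overlapped through KO tumours 2 and 7 and WT tumour 3. The difference was -0.57 log2 and did not pass (limma, adjusted p = 0.151). Lama3, the alpha chain of the Lamb3 trimer, stood at 10.11, 10.08, 9.82, 10.03 and 9.87 log2 in KO tumours 2, 6, 7, 9 and 11, against 9.92, 10.15, 10.38, 10.54 and 10.51 log2 in WT tumours 1, 3, 8, 12 and 13. WT tumour 1 fell within the KO range. The difference was -0.32 log2 (limma, adjusted p = 0.206), and that of another Lama3 probe set was -0.66 log2 (adjusted p = 0.126).

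The remaining laminin chains did not pass. Lama5, a chain of laminins of mature epithelium, differed by -0.47 log2, Lamb1 by -0.36, Lama1 by -0.33, Lamb2 by -0.32 and Lama2 by -0.24 log2. Lama4, a chain of vessel laminins, had equal means of 8.07 log2 in KO and WT tumours. Lamc3, under the filter, ranged from 5.01 to 5.43 log2 in KO and from 5.30 to 5.61 log2 in WT tumours. Of the tumours, KO tumour 2 had the highest KO value in 7 of the 9 tested laminins and KO tumour 9 the lowest in 6. WT tumour 3 had the lowest WT value in 7. The fibroblast list followed a like order: it was highest in KO tumour 2 at 9.62, against 8.65 to 9.08 log2 in the other KO tumours, and lowest in WT tumour 3 at 8.44, against 9.20 to 9.59 log2 in the other WT tumours. The endothelial list ranged from 6.33 to 7.32 log2 in KO and from 6.40 to 7.66 log2 in WT tumours. It too was highest among KO in tumour 2 and lowest among WT in tumour 3. So was the smooth muscle list, at 8.08 log2 in KO tumour 2 and 7.09 log2 in WT tumour 3. Flt1 alone of the 9 tested endothelial genes passed, falling by 0.99 log2 (limma, adjusted p = 0.03). This is 11.1% of the endothelial genes, beside 2.93% of all genes lower and 7.09% in either direction. At an unadjusted p under 0.05, 3 were lower, beside 9.58% of all genes, and the median difference was -0.51 log2. Of the 8 tested fibroblast genes none passed (limma), and 1 was lower at an unadjusted p under 0.05, beside 9.58% of all genes. Their differences were negative in 7, beside 5664 of all 12250 genes, with a median of -0.34 log2. The part of these lists in the laminin values was not tested.

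Among the beta chains, Itgb1, which pairs with many alpha chains, was the gene without overlap in the lower direction. Itgb1 stood at 10.86, 10.92, 10.83, 10.95 and 10.92 log2 in KO tumours 2, 6, 7, 9 and 11, against 11.24, 11.07, 11.12, 11.42 and 11.23 log2 in WT tumours 1, 3, 8, 12 and 13. All KO tumours lay below all WT tumours, and the KO values kept within 0.12 log2. The difference was -0.32 ± 0.094 log2 (SE) and did not pass (limma, adjusted p = 0.0715). The other Itgb1 probe sets above the filter gave -0.42 and -0.23 log2, and neither passed.

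Itgb4, the partner of Itga6 in hemidesmosomes, differed by -0.46 log2, and Itgb6, an epithelial partner of Itgav, by 0.68 log2. Without WT tumour 1, the lowest, the Itgb6 difference was 0.32 log2, and in the upper number range, where that tumour is the 1 WT tumour, it was 2.12 log2 (adjusted p = 0.0166). Itgb3, a partner of Itgav and, on platelets, of Itga2b, differed by 0.48 log2 in the probe set used and by -0.38 log2 in its other one. Itgb5, another partner of Itgav, differed by -0.079 log2, with a positive difference in its other 3 probe sets. None of Itgb3, Itgb4, Itgb5 and Itgb6 passed with all tumours. Itgb8, under the filter, ranged from 2.79 to 5.39 log2 in KO and from 4.14 to 6.03 log2 in WT tumours.

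The laminin-binding alpha chains Itga6 and Itga3 differed by 0.25 and -0.035 log2, and Itga7 lay under the filter at 5.03 to 5.40 log2 in KO and 5.09 to 5.92 log2 in WT tumours. The collagen-binding chains Itga1 and Itga2 differed by 0.47 and 0.34 log2, and Itga10 lay under the filter at 4.64 to 5.46 log2 in KO and 4.52 to 4.83 log2 in WT tumours. The chains that bind the tripeptide RGD, Itgav, Itga2b and Itga5, differed by -0.34, -0.17 and -0.032 log2. Itga8, of the same group, lay under the filter at 5.15 to 5.85 log2 in KO and 4.90 to 7.40 log2 in WT tumours. Itga9, a relative of Itga4, differed by -0.36 log2. None of these 8 tested chains passed, and the adjusted p of the 18 tested members given without their own ran from 0.289 to 1 (limma).

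**Figure D4:**
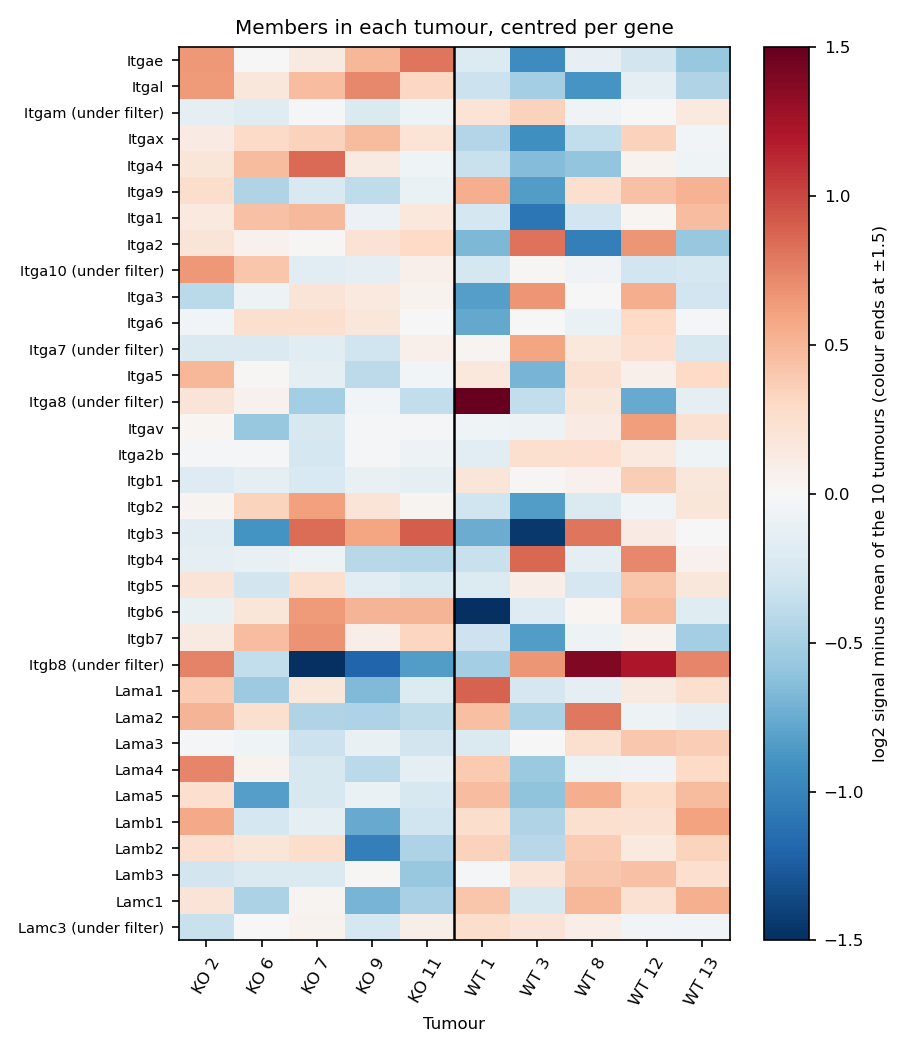
Log2 signal of all 34 genes in each tumour minus the mean over the 10 tumours, KO tumours left of the line and WT tumours right of it, in rows by role, with colours ending at ±1.5 log2. WT tumour 3 has the lowest WT value in 18 of the 28 genes tested, and Itgal is above its mean in all KO tumours.

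The spread between tumours differed from group to group. The SD was smaller in KO than in WT tumours in 18 of 19 tested integrins (94.7%) and in 4 of 9 tested laminins (44.4%), beside 56.2% of all genes tested. The median SD of the integrins was 0.24 log2 in KO and 0.39 log2 in WT tumours. In the WT group, tumour 3 had the lowest value in 18 of the 28 genes, 7 of them laminins, and the highest in Itga2, Itga3 and Itgb4. WT tumour 1 had the lowest in 7 genes, among them Itga6, Itgb4, Itgb6, Lama3 and Lamb3, and WT tumour 12 the highest in 11. The 3′ minus 5′ difference of 4 pairs of control probe sets, which moves with RNA quality, was 0.192 to 0.36 log2 in KO and -0.000129 to 0.328 log2 in WT tumours, with WT tumour 3 the lowest. Its part in the spread was not tested.

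Other probe sets gave a further view of the same tumours. The 34 genes had 73 probe sets, and 27 others above the filter belonged to 17 genes. Of these, 20 had the sign of the probe set used. The 7 of opposite sign belonged to Itgb5 with 3, Itga3 with 2, Itgb3 and Itgav.

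Genes whose products work with integrins and laminins, from lists chosen with earlier results of these data known, were set beside them. Of 80 such genes on the array, 66 were tested, none were higher and 5 were lower in KO tumours (limma), 7.58% beside 7.09% of all genes. At an unadjusted p under 0.05, 4 were higher, beside 12.8% of all genes, and 10 were lower, beside 9.58% of all genes. Among the 26 tested adaptors and kinases, 2 fell and none rose, 7.69% beside 2.93% of all genes lower and 7.09% in either direction. Flna, which links integrin tails to actin, fell by 1.16 ± 0.25 log2 (SE, adjusted p = 0.0208), with 8.93 ± 0.39 in KO and 10.11 ± 0.44 log2 in WT tumours (SD, n = 5 tumours each). Fermt2, a kindlin that activates integrins, fell by 0.95 ± 0.25 log2 (SE, adjusted p = 0.0437). Flna was 2.24-fold and Fermt2 1.94-fold lower. Flna did not pass without KO tumour 6, WT tumour 1, mouse 04 or mouse 72, the last leaving -0.81 log2 (adjusted p = 0.35). It did not pass over mouse means either (-1.06 log2, adjusted p = 0.091), nor in the lower (-1.25 log2) or the upper number range (-1.54 log2). Fermt2 passed over mouse means (-1.03 log2, adjusted p = 0.0234) and in 15 of 30 alternatives in all, and leaving out any of 7 single tumours ended its call, with differences from -1.01 to -0.84 log2.

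Of 15 tested integrin ligands, 2 fell and none rose, 13.3% beside 2.93% of all genes lower and 7.09% in either direction. Fn1, fibronectin, which Itga5 and Itgav integrins bind, fell by 1.49 ± 0.32 log2 (SE, adjusted p = 0.0204), and did not pass without KO tumour 6 (-1.51 log2, adjusted p = 0.0508), mouse 04 (-1.31 log2) or mouse 72 (-0.66 log2, adjusted p = 0.5). Over mouse means Fn1 differed by -1.24 log2 (adjusted p = 0.175), and it did not pass in the lower range (-1.66 log2), in the upper range (-2.09 log2, adjusted p = 0.0523) or without WT tumours 1 and 3 (-1.4 log2, adjusted p = 0.0622). Thbs1, thrombospondin, a matrix protein that binds integrins, fell by 1.80 ± 0.38 log2 (SE, adjusted p = 0.0197). In KO tumours 2, 6, 7, 9 and 11, Thbs1 was at 8.32, 8.42, 8.44, 8.59 and 8.33 log2, against 11.64, 9.56, 10.22, 9.39 and 10.27 log2 in WT tumours 1, 3, 8, 12 and 13. All KO tumours lay below all WT tumours, and WT tumour 1 was the highest. Thbs1 did not pass without KO tumour 6, mouse 02 or mouse 04 (-1.82 to -1.77 log2, adjusted p = 0.0571 to 0.0801) nor in the lower range (-1.4 log2, adjusted p = 0.297), and it passed over mouse means (-1.8 log2). Icam1, a ligand of LFA-1, differed by 1.03 log2 (adjusted p = 0.0741) and Cdh1, E-cadherin, the ligand of the Itgae integrin, by 0.34 log2 (adjusted p = 0.189). Vcam1, a ligand of Itga4 integrins, differed by 0.67 log2 (adjusted p = 0.473), with WT tumour 3 lowest at 5.35 log2. Madcam1, the ligand of the Itga4 and Itgb7 integrin, lay under the filter. The 4 last-named genes did not pass or were not tested, and they were named after their values were seen for their link to the chains above.

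Among the 11 tested basement membrane genes, 1 fell and none rose, 9.09% beside 2.93% of all genes lower and 7.09% in either direction. Differences were negative in 10 of the 11, beside 5664 of all 12250 genes. Smoc2, a calcium-binding matrix protein, fell by 2.99 ± 0.43 log2 (SE, adjusted p = 0.00286), 7.93-fold lower, with 7.28 ± 0.85 in KO and 10.26 ± 0.62 log2 in WT tumours (SD, n = 5 tumours each). In KO tumours 2, 6, 7, 9 and 11, Smoc2 was at 8.04, 8.17, 7.33, 6.30 and 6.54 log2, against 11.21, 9.85, 10.41, 9.58 and 10.26 log2 in WT tumours 1, 3, 8, 12 and 13. None of the KO tumours reached the WT range, and without mouse 72 the difference was -3.13 log2 (adjusted p = 0.0748). In the lower range it was -2.67 log2 (adjusted p = 0.0675). None of the 8 hemidesmosome and tetraspanin genes passed, and those with the smallest p were Cd9 (0.38 log2) and Tspan8 (0.51 log2). None of the 6 other laminin receptors passed, and those with the smallest p were Sdc4 (0.39 log2, adjusted p = 0.158) and Bcam (-0.43 log2, adjusted p = 0.206).

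**Figure D5:**
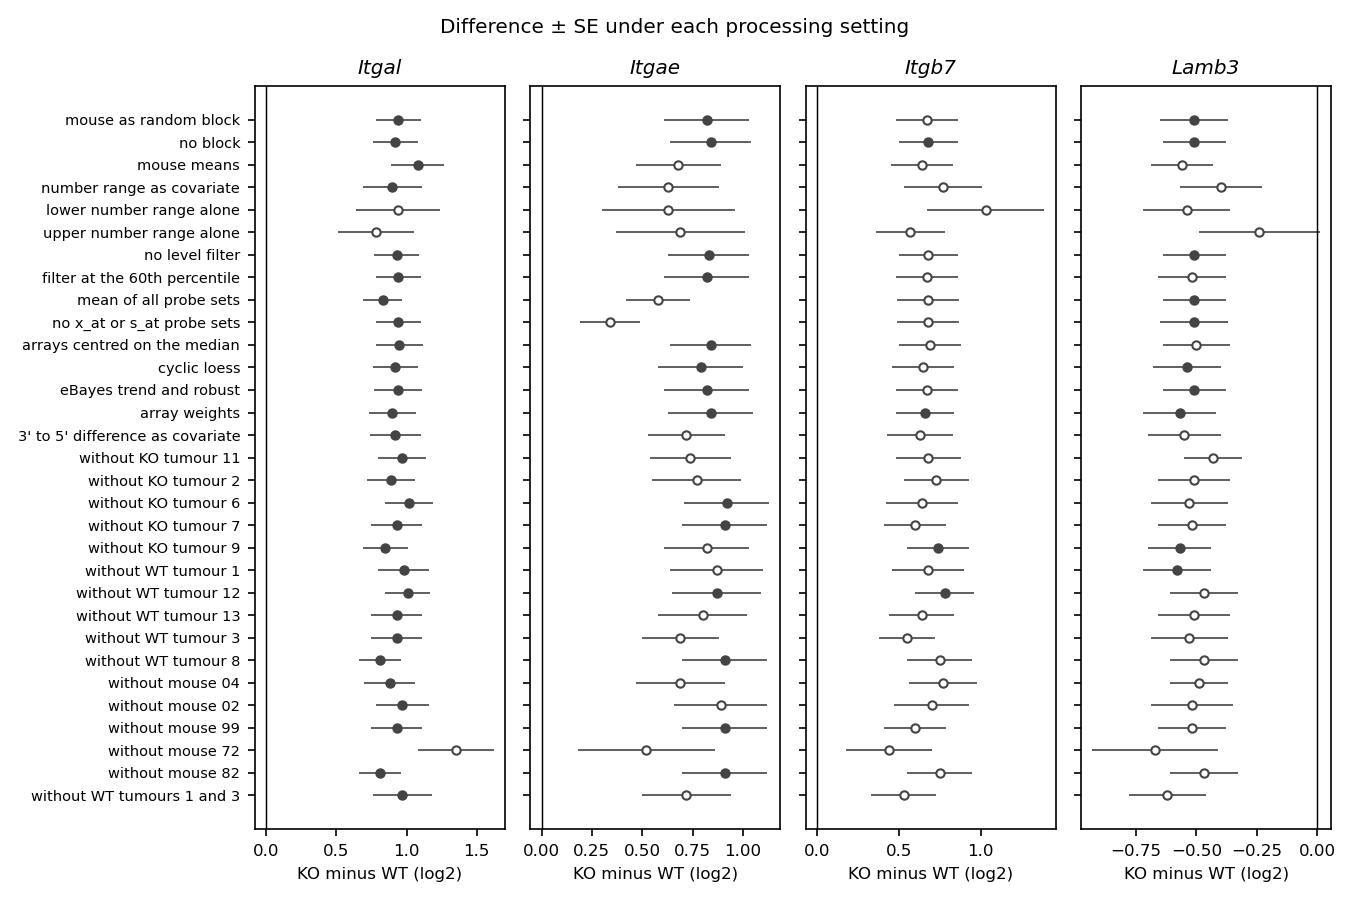
Difference in log2 signal, KO minus WT, with bars for the standard error, for Itgal, Itgae, Itgb7 and Lamb3 under the mouse block and 30 alternatives, filled where adjusted p was under 0.05 (limma). Itgal is filled in 27 of the alternatives, Itgae in 13, Itgb7 in 4 and Lamb3 in 9, and the sign of each is the same throughout.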

How the data were processed

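The members and gene lists were chosen with earlier results of these data known. The deposited values are log2 signals made by the authors with RMA from 45101 probe sets, per the submitters' processing notes, whose version is not given in the sources used here. Of the probe sets, 64 were Affymetrix controls, 34945 had a single gene symbol, 932 several and 9160 none. Symbols came from the platform annotation, updated to RefSeq on GRCm38.p6 by gene identifier for 34741 probe sets. Of 18193 genes, 12250 whose mean reached 5.82 log2 (the 40th percentile over probe sets) were tested with lmFit and eBayes of limma 3.58.1, in R 4.3.3 with statmod 1.5.0. Mouse was a random block with a consensus correlation of 0.0586, and p-values were adjusted by Benjamini-Hochberg over all genes tested, with a threshold of 0.05.

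All member genes are named. Members past the threshold, and those with an unadjusted p under 0.05, are given in every tumour. Of each partner list, members past the threshold are named, or otherwise those with the smallest p. Per the labels, dissected material of a mouse was pooled before extraction, yet most mice have several arrays, which were treated as single tumours. Data of 12250 genes, 200 of them changed, were simulated for KO against WT tumours. Recovered were 28.4% of changes of 0.5 log2, 70.1% of changes of 0.9 log2 and 93.9% of changes of 2 log2, with 5.19% false calls. In the tumours themselves 868 genes were called, so recovery there may differ from the simulated share. Other settings tried were the fit without a block or over mouse means, the number range or the 3′ to 5′ difference as covariate, each range alone, other level filters, other rules for probe sets, other scalings, other eBayes options and weights, a minimum fold of 1.5, and leaving out single tumours and single mice. Leaving out WT tumours 1 and 3 was added after seeing the data.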

Additional observations from a re-analysis of the deposited data

Results flagged for a closer look

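Of the 68 groups of 5 tumours of 1 genotype checked for the 34 genes, 5 (7.35%) held a tumour far from the other tumours of its group, and chance flags about 1 in 20 groups. Itga2b was at 6.20 log2 in KO tumour 7 and at 6.38 to 6.44 log2 in the other KO tumours. Itga5 was at 6.41 log2 in WT tumour 3 and at 7.18 to 7.40 log2 in the other WT tumours. Itga9 was at 6.94 log2 in WT tumour 3, with the other WT tumours at 8.02 to 8.33 log2. Lama5 was at 9.59 log2 in WT tumour 3, with the other WT tumours at 10.47 to 10.74 log2. Itgb6 was at 6.21 log2 in WT tumour 1, with the other WT tumours at 7.86 to 8.53 log2.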

How the results depend on the processing

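No paired analysis was possible because no mouse gave both KO and WT tumours and the groups share no tumour numbers. Itgal passed in 27 of 30 alternatives, Itgae in 13 and Lamb3 in 9, with the same sign in all. Differences ran from 0.78 to 1.35 log2 for Itgal, 0.34 to 0.92 for Itgae and -0.67 to -0.24 for Lamb3. Itgae did not pass with the mean of its probe sets, without x_at and s_at probe sets, with the 3′ to 5′ covariate or when any of KO tumours 2, 9 and 11, WT tumours 1, 3 and 13 or mice 02, 04 and 72 was left out. With KO tumour 9 or WT tumour 1 left out Lamb3 passed, and with any other single tumour or any mouse left out it did not. Among the partners, Smoc2 passed in 28 of 30, Thbs1 in 26, Flna and Fn1 in 23 each and Fermt2 in 15.

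The 2 members higher became 1 over mouse means, without x_at and s_at probe sets, with the 3′ to 5′ covariate and without WT tumours 1 and 3, and 0 in the lower number range. The count ranged from 1 to 4 with a tumour or mouse left out, and the 4, without WT tumour 12, were Itgal, Itgae, Itgax and Itgb7. The genes counted were not the same throughout: they were Itgal and Itgb6 with the range covariate and Itgal and Itga4 with the mean of probe sets. Without mouse 72 and in the upper range, each with 1 WT tumour, Itgal was not among them. The 1 member lower became 2 without the block, with the mean of all probe sets and with eBayes trend and robust, and 3 with array weights. It became 0 over mouse means, with the range covariate, in each range, at the 60th percentile filter, with centred arrays, with the 3′ to 5′ covariate, per probe set, at a fold of 1.5 and without WT tumours 1 and 3, and ranged from 0 to 1 with a tumour or mouse left out. Partners higher, 0 in the fit reported, were 2 with the range covariate, 3 in the upper range and 1 with the mean of probe sets, and 0 to 2 with a tumour or mouse left out. Partners lower, 5 there, were 3 over mouse means, 8 with the range covariate, 0 in the lower and 3 in the upper range and 8 with array weights, and 1 to 6 with a tumour or mouse left out. For these counts the cause was not tested, except that each range holds fewer tumours.

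Signs turned for 12 members that did not pass. In the lower range these were Itga2 (-0.0019), Itgb5 (0.11), Lama1 (0.17), Lama4 (-0.14) and Lamb2 (0.17 log2). In the upper range they were Itga2b (0.12), Itga3 (0.75), Itgb4 (0.059), Itgb5 (0.085), Lama3 (0.10) and Lama4 (-0.33 log2). With the range covariate they were Itga3 (0.38), Itgb5 (0.13) and Lama4 (-0.24 log2), and over mouse means Itga3 (0.00091), Itgb5 (0.068) and Lama4 (-0.010 log2). With the mean of probe sets they were Itga3 (0.028) and Itgb5 (0.10 log2), and without x_at and s_at probe sets Itga3 (0.058 log2). With array weights they were Itga3 (0.046) and Lama4 (-0.12 log2), and with the 3′ to 5′ covariate Itga3 (0.079) and Lama4 (-0.11 log2). With cyclic loess Lama4 was at -0.029 log2, and without WT tumours 1 and 3 Lama4 was at -0.053 and Itgb3 at -0.065 log2. With a tumour or mouse left out, Itga3 ran from -0.23 to 0.12, Itga5 from -0.24 to 0.12, Itgb3 from -0.52 to 1 and Itgb5 from -0.17 to 0.22 log2. Lama2 ran from -0.91 to 0.0079, Lama4 from -0.26 to 0.19 and Lamb2 from -0.56 to 0.076 log2. The cause was not tested. Among members outside the 3 that passed, Itga2 passed in 2 alternatives, without mouse 72 (1.17 log2) and in the upper range (0.86 log2), each with 1 WT tumour. Itgb6 passed in 2, with the range covariate (1.37 log2) and in the upper range (2.12 log2), the latter with 1 WT tumour. Itgb7 passed in 4, Itgb1 in 3 and Itga4, Itgax, Lama3 and Lamc1 in 1 each. Precision is limited by the small number of arrays, and detection above background was not analysed here.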
